A study of Homo sapiens with 24 samples.

Results

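The late response of HEK293 cells to the peptide MOTS-c was measured on 12 arrays, the 6 MOTS-c arrays and the 6 control arrays of 72 h, taken by their sample labels from the 24 arrays of the study. HEK293 is an established human embryonic kidney cell line. The 72 h MOTS-c cells received 10 µM of the peptide, which has 16 residues, and the 72 h control cells received water. Both groups, like the 2 groups of 4 h, grew in phenol-free DMEM with fetal bovine serum, in dishes of the same line, and no genotype or allele difference is labelled. RNA was read on Illumina bead arrays, 1 array per sample, and a level below is a log2 normalized probe intensity. The comparison asks which transcripts differ after prolonged exposure to the peptide.

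MOTS-c is a short peptide encoded within the 12S ribosomal RNA gene of mitochondrial DNA. It is known for slowing the folate and methionine cycles, for activating the AMP-activated kinase and for entering the nucleus under metabolic stress. The largest decreases below include genes of the NF-kB pathway. Its transcription factors are held in the cytosol by inhibitor proteins, are released when receptors such as those for TNF or interleukin-1 signal, and switch on chemokine genes together with the genes of their own inhibitors.

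Mean intensities ran between 403.7 and 582.2 on MOTS-c arrays and between 399.2 and 596.9 on control arrays, and 21741 to 22778 probes were detected on MOTS-c arrays and 21853 to 23405 on control arrays. The first principal component of the 12 arrays held 59.8% of the variance and placed the MOTS-c arrays between -25.1 and -12.5 and the control arrays between 5.84 and 26.4. Control replicate 5 was the brightest array and lay nearest to the MOTS-c arrays on that component, with the other control arrays at 16.8 or above. Its removal raised the number of genes called to 6382. Counts that its removal moved by over 1.5 times are given below beside the main ones. Markers of other cell types are described further on.

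Of 13283 genes tested, 5984 were called at a limma Benjamini-Hochberg adjusted p under 0.05, which is 45.1% of all genes. The 2936 called higher with MOTS-c were 22.1% and the 3048 called lower were 22.9%. With arrays scaled to a common median in place of quantile normalization, 2952 were called higher and 1737 lower, and the median over all genes was 0.077 in place of 0.0062. Where a gene is said below to be at a signed value, the value is its log2 fold change, MOTS-c minus control, and it passed the test unless stated otherwise. Rose, fell, lost and gained compare MOTS-c with control arrays of 72 h and not with an earlier time. The counts of gene lists below stand against the 22.1% higher and 22.9% lower of all genes. Median scaling mostly lowered the number of list members called lower, and its counts are given for part of the lists only. Most changes were small: the median size of a called change was 0.36 on the log2 scale, a 1.29-fold difference, and the median SE over all genes was 0.086. Among the called genes 1013 differed at least 1.5-fold, 368 higher and 645 lower. At least 2-fold differences were found for 129 genes (0.971%), 26 higher (0.196%) and 103 lower (0.775%), and 9 genes were at least 4-fold lower with 0 at least 4-fold higher. The large changes were thus more often decreases. For 2982 genes (22.4%) the 6 MOTS-c arrays all lay beyond the 6 control arrays, 1242 above them (9.35%) and 1740 below them (13.1%). Of the 129 genes with at least 2-fold differences, 126 were among these. Overlap of the arrays is stated below for some called genes only, and others, such as MAP3K7 and SEC24B, overlapped too.

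**Figure D1:**
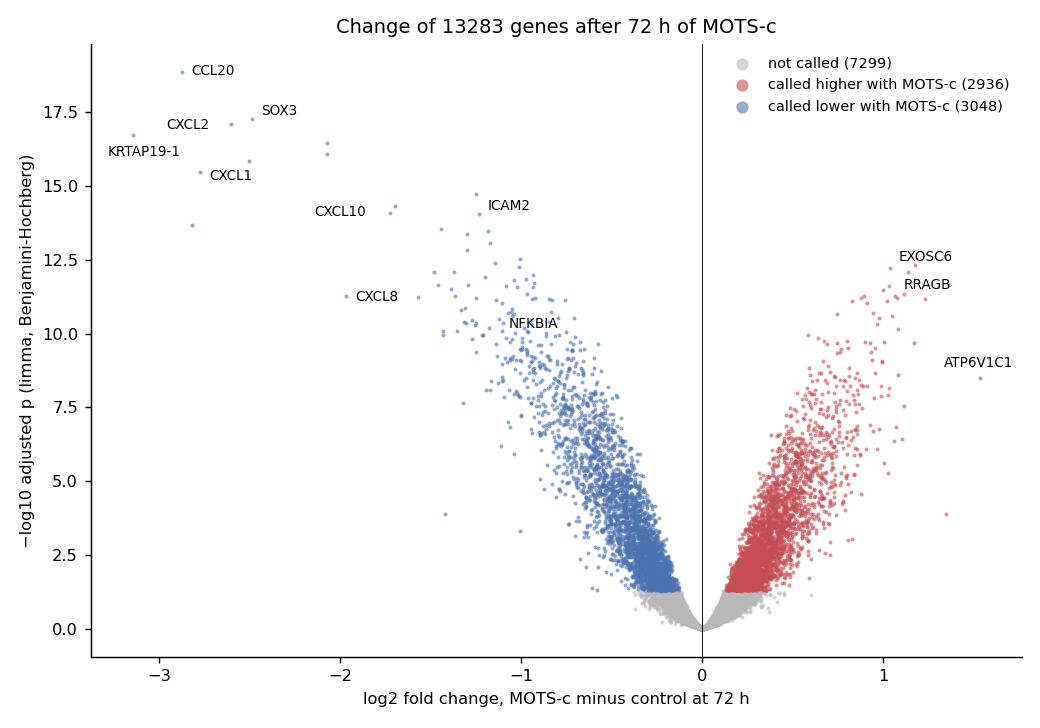
Log2 fold change (horizontal) against −log10 of the limma adjusted p (vertical) for 13283 genes, with the 2936 called higher in red, the 3048 called lower in blue and the rest in grey. The left arm reaches a log2 fold change of -3.15, whereas the right arm ends at 1.54, the fitted value of ATP6V1C1, which was detected on 3 of 6 control arrays.

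Secreted signals of inflammation held the largest single decreases among the pathway lists. Of 22 measured cytokines and chemokines, 13 fell (59.1%, against 22.9% of all genes), 0 rose and 9 were not called. Their median log2 fold change was -0.44, against 0.0062 over all genes. CCL20, which attracts lymphocytes and dendritic cells, had levels of 8.08, 8.22 and 8.37 (lowest, median and highest) on MOTS-c arrays and 10.98, 11.05 and 11.31 on control arrays. CXCL1, which attracts neutrophils, had 6.90, 7.33 and 7.62 on MOTS-c arrays and 9.77, 10.08 and 10.29 on control arrays. CXCL2, a close relative of CXCL1, had 5.21, 5.55 and 5.88 on MOTS-c arrays, where it was detected on 5 of 6, and 8.03, 8.09 and 8.48 on control arrays. In all 3 the groups were far apart, with no overlap. Their log2 fold changes were -2.87 (SE 0.082) for CCL20, -2.77 (SE 0.12) for CXCL1 and -2.60 (SE 0.090) for CXCL2. The largest limma adjusted p of the 3 was 3.45e-16, that of CXCL1. CXCL8, the main neutrophil chemokine of human tissues, had 9.03, 9.31 and 9.64 on MOTS-c arrays and 11, 11.30 and 11.50 on control arrays, with a log2 fold change of -1.97 (SE 0.13). CXCL10, which interferons also induce, had 5.58, 5.69 and 6.0 on MOTS-c arrays and 7.33, 7.43 and 7.71 on control arrays, with a log2 fold change of -1.73 (SE 0.083). TNF, the cytokine that starts much of NF-kB signalling, was detected on 1 of 6 MOTS-c arrays and 6 of 6 control arrays, with levels of 4.87, 5.17 and 5.44 on MOTS-c arrays and 6.98, 7.22 and 7.51 on control arrays.

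Smaller decreases passed the test in signals of several kinds. IL32 was at -1.10 (SE 0.11), the membrane-bound chemokine CX3CL1 at -0.89 (SE 0.12), the stromal chemokine CXCL12 at -0.79 (SE 0.099), CCL2 at -0.46 (SE 0.087), the interleukin-6 family cytokine LIF, detected on 4 of 6 MOTS-c arrays, at -0.41 (SE 0.11), and CCL5 at -0.29 (SE 0.095, not called under median scaling). IL1A was undetected on all 6 MOTS-c arrays and detected on all 6 control arrays, at least 1.43-fold lower. CXCL3 was not called. Its levels of 5.18, 5.35 and 5.48 on MOTS-c arrays and 5.23, 5.36 and 5.44 on control arrays overlapped, it was detected on 4 of 6 arrays of each group and so lay near the detection limit, and its log2 fold change was -0.022 (SE 0.12). CXCL6, detected on 5 of 6 MOTS-c arrays and 6 of 6 control arrays, was not called at -0.31 (SE 0.13) (limma adjusted p = 0.057). CXCL8, CXCL6, CXCL1, CXCL3 and CXCL2 lie in a single stretch of chromosome 4, so neighbours in that cluster differed in their values.

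The promoters of 6 chemokine genes and 2 genes of NF-kB inhibitors, NFKBIA and TNFAIP3, show what the chemokine genes share and where CXCL3 stands. Each line holds the 250 bases before the start of the gene, 5′ to 3′ on the gene's strand, from RefSeq (GRCh38.p14), and capitals mark every match to the NF-kB consensus, a motif of 10 letters that was searched on both strands and is given here by its name alone.
CCL20, chr2:227813592-227813841, plus strand: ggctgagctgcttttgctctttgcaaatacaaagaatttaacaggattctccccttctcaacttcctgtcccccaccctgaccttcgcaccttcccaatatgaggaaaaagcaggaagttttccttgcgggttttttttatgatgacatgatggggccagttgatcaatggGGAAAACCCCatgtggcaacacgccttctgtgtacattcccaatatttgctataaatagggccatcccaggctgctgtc
CXCL1, chr4:73869143-73869392, plus strand: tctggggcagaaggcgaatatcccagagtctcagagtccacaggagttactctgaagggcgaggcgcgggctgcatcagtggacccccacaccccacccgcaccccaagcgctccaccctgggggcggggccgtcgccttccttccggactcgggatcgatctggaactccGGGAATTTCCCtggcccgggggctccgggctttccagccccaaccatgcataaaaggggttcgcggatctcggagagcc
CXCL2, chr4:74099196-74099445, minus strand: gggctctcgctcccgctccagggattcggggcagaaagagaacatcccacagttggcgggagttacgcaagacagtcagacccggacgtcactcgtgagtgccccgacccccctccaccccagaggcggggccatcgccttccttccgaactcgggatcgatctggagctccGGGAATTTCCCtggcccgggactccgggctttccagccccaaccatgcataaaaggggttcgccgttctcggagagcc
CXCL3, chr4:74038690-74038939, minus strand: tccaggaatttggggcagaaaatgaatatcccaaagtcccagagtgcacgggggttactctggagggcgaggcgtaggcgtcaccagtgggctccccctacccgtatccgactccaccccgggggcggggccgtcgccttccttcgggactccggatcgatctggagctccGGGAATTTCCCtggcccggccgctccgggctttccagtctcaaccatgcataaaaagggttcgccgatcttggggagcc
CXCL8, chr4:73740319-73740568, plus strand: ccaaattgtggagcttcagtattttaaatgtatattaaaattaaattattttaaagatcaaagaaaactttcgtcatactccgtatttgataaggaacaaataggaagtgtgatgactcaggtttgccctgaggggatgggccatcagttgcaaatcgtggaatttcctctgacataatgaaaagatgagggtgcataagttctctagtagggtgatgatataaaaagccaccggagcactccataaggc
CXCL10, chr4:76023498-76023747, minus strand: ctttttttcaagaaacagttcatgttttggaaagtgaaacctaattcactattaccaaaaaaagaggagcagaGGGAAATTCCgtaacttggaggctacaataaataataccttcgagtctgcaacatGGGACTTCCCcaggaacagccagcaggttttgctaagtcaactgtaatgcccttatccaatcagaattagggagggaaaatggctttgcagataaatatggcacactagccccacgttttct
NFKBIA, chr14:35404750-35404999, minus strand: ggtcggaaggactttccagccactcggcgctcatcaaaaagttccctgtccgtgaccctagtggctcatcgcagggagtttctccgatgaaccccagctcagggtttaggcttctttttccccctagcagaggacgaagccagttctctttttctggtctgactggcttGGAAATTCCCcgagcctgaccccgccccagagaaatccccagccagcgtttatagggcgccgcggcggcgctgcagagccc
TNFAIP3, chr6:137867009-137867258, plus strand: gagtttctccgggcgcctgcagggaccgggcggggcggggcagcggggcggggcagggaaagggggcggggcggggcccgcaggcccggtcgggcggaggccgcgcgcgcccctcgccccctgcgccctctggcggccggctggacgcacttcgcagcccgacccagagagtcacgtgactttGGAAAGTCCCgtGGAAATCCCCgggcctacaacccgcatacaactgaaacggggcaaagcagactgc

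The chemokine promoters thus hold matches in 5 of 6 cases. In the promoters of CXCL1, CXCL2 and CXCL3 the marked run is the same string of letters, in which matches on the 2 strands overlap, and its last match begins at position -78, -77 and -78, counted back from the gene's start. The promoter of CCL20 has 1 match, at -79, and that of NFKBIA 1 at -81. CXCL10 and TNFAIP3 have 2 matches each. The window of CXCL8 holds 0 exact matches to the consensus. A match in these letters is a description and not a measured binding site. Of the 103 genes called at least 2-fold lower, 77 had a promoter sequence to search. An NF-kB match was held by 10 of these 77 (13.0%), against 643 of all 10614 promoters of tested genes (6.06%). The 10 include CCL20, CXCL1, CXCL2, CXCL10, NFKBIA and TNFAIP3, whose promoters are printed above. The share is thus not separate from those printed promoters, which were chosen with these data known. Of the genes called at least 2-fold higher, 1 of 17 did (5.88%). Over all called genes the shares were 6.45% of 2404 lower and 5.18% of 2452 higher ones. Other motifs were searched in the same 77 promoters, and no motif share was tested. The motif named CRE was in 4 (5.2%, against 2.96% of all promoters), the E-box in 7 (9.09%, against 8.68%) and AP-1 in 2 (2.6%, against 4.04%). The ATF4 core was in 2 (2.6%, against 1.59%), the ISRE core in 2 (2.6%, against 2.27%) and the CArG box in 1 (1.3%, against 1.02%).

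Most NF-kB subunits fell, the inhibitors fell more often than they rose, and the receptors and kinases upstream were mixed. Of the 5 subunits 4 fell and 0 rose. RELB, the subunit of the noncanonical branch, had 6.91, 7.10 and 7.5 on MOTS-c arrays and 7.86, 8.03 and 8.26 on control arrays, with a log2 fold change of -0.91 (SE 0.094, limma adjusted p = 1.33e-08). NFKB2, its partner, had 6.93, 7.21 and 7.35 on MOTS-c arrays and 7.65, 7.88 and 7.98 on control arrays. RELA was at -0.42 (SE 0.10) and NFKB1 at -0.28 (SE 0.052, not called under median scaling), the pair of the canonical branch, and REL was not called at 0.059 (SE 0.15). Of 17 inhibitors and feedback regulators 8 fell, 1 rose and 8 were not called, and without control replicate 5 the counts were 9 and 4. NFKBIA, the inhibitor that binds the factors in the cytosol and that they induce, had 10.53, 10.62 and 10.69 on MOTS-c arrays and 11.40, 11.66 and 11.99 on control arrays, with a log2 fold change of -1.05 (SE 0.084, limma adjusted p = 1.47e-10). TNFAIP3, a ubiquitin editor that ends the signal, had 7.12, 7.33 and 7.48 on MOTS-c arrays and 8.24, 8.31 and 8.47 on control arrays, with a log2 fold change of -1.03 (SE 0.10, limma adjusted p = 8.85e-09). ZC3H12A, an RNase that degrades cytokine transcripts, fell by 0.69 on the log2 scale. NFKBIZ was at -0.49 (SE 0.12), IRAK2 at -0.48 (SE 0.10), IRAK3 at -0.34 (SE 0.11) and BCL3 at -0.31 (SE 0.075, not called under median scaling). NFKBIB had a called log2 fold change of 0.32 at its brightest probe and -0.19 at its other probe, so its direction is not settled.

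Of 20 receptors, adaptors and kinases of the pathway, 6 rose, 2 fell and 12 were not called, with a median of -0.034 that turned to 0.062 under median scaling. TRAF6, a ubiquitin ligase downstream of the interleukin-1 receptor, had 6.66, 6.88 and 6.92 on MOTS-c arrays and 6.41, 6.53 and 6.63 on control arrays and rose by 0.33 on the log2 scale (SE 0.063). MAP3K7, the kinase it activates, rose by 0.33 (SE 0.067), and RIPK2, the kinase of the NOD receptors, was at -0.26 (SE 0.067, not called under median scaling). The 2 probes of IL1RAP had opposite signs, 0.36 and -0.26.

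**Figure D2:**
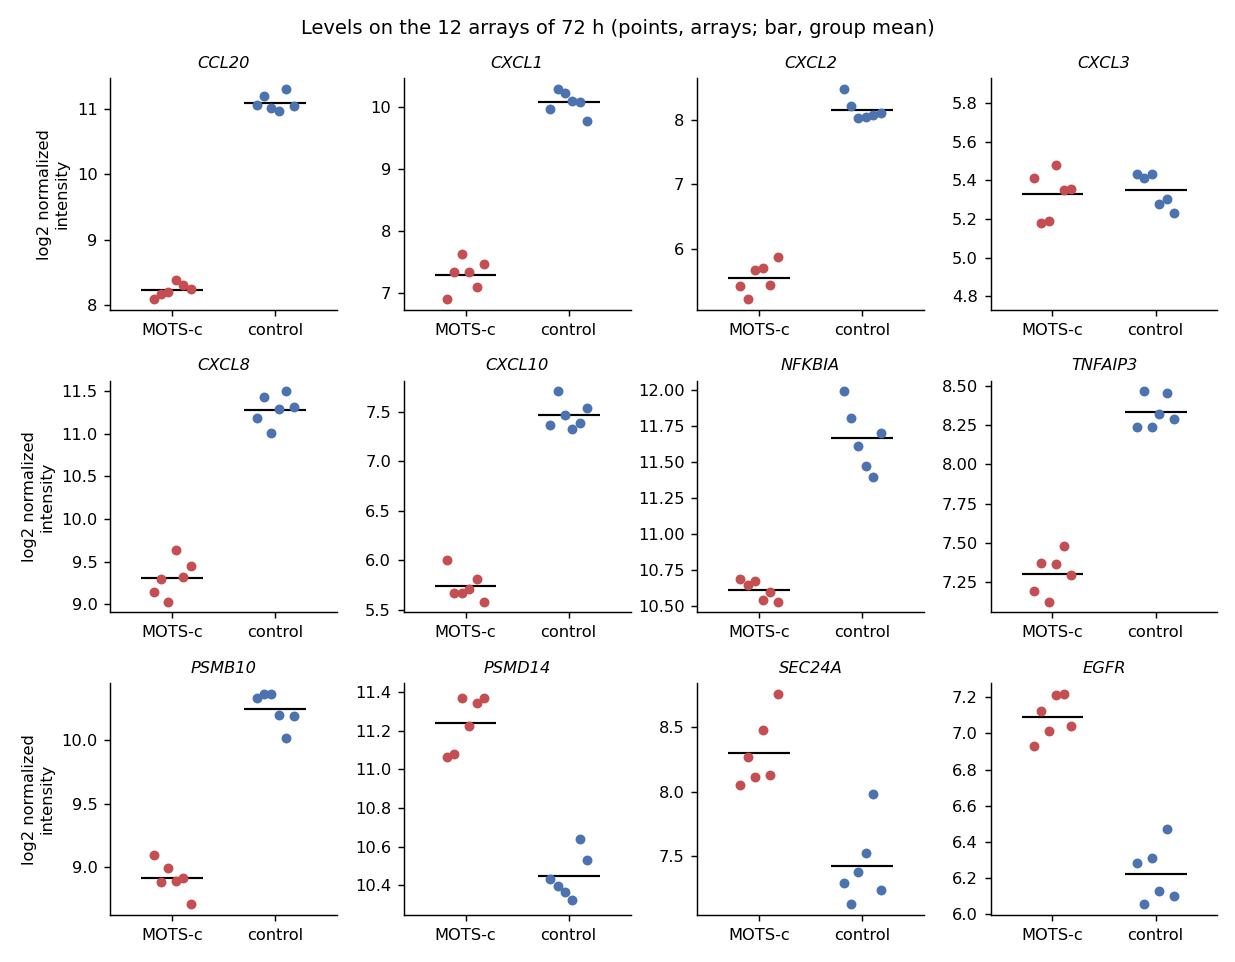
Log2 normalized intensity of 12 genes on the 6 MOTS-c arrays (red, left) and the 6 control arrays (blue, right) of 72 h, with points for arrays and bars for group means. The groups do not overlap in any panel but that of CXCL3, whose levels lie between 5.18 and 5.48.

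Transcripts of the growth factor response were also more often lower than higher. Of 16 feedback inhibitors of MAP kinases 8 fell (50%, against 22.9% of all genes) and 2 rose. Of 17 AP-1 and ATF factors 8 fell (47.1%) and 2 rose. Of 14 EGR, IER and other early response factors 6 fell (42.9%) and 0 rose (1 without control replicate 5). Under median scaling 6 feedback inhibitors fell and 3 rose. The counts were then 6 and 2 for AP-1 and ATF factors and 5 and 1 for early response factors. The medians of the lists, in this order, went from -0.21 to -0.17, from -0.18 to -0.069 and from -0.24 to -0.13. Many such genes are induced within minutes of growth factor or stress signals. DUSP1, a phosphatase that switches MAP kinases off, had 11.05, 11.16 and 11.30 on MOTS-c arrays and 11.58, 11.70 and 11.85 on control arrays, with a log2 fold change of -0.55 (SE 0.062, limma adjusted p = 7.01e-08). The related phosphatases DUSP14 at -0.46 (SE 0.057) and DUSP5 at -0.44 (SE 0.057) also fell, whereas SPRED1, an inhibitor of RAS signalling, rose by 0.46 (SE 0.073). FOS, a component of AP-1, had 6.51, 6.62 and 6.77 on MOTS-c arrays and 7.25, 7.42 and 7.57 on control arrays, with a log2 fold change of -0.80 (SE 0.096, limma adjusted p = 1.85e-07). FOSB was at -0.59 (SE 0.074), and MAF, a factor of a related family, rose by 0.48 (SE 0.060). IER3, which NF-kB also induces, had 9.88, 10.25 and 10.37 on MOTS-c arrays and 10.94, 11.30 and 11.37 on control arrays. EGR1 was at -0.65 (SE 0.076) and ZFP36, an RNA-binding protein that shortens the life of cytokine transcripts, at -0.60 (SE 0.061). None of the 6 MOTS-c arrays overlapped the control arrays for the 10 genes named here, against 22.4% of all genes with such groups. The 10 were named for a small p or a large change, which favours this.

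Among the EGF family, 3 of 9 rose and 3 fell, against 1 and 1 under median scaling. EGFR, the receptor for EGF, had 6.93, 7.08 and 7.22 on MOTS-c arrays and 6.05, 6.21 and 6.47 on control arrays, a log2 fold change of 0.86 (SE 0.083, limma adjusted p = 3.62e-09) with 0.24 at its other probe. Of 6 ligands, NRG4 was at -0.83 (SE 0.13) and HBEGF at -0.32 (SE 0.070, not called under median scaling), EGF was called higher and 3 were not called.

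Families of developmental transcription factors held members that rose and members that fell. Of 28 HOX and PAX genes, which pattern the body axis, 10 rose, 2 fell and 16 were not called, with a median of 0.15. HOXA2 had 6.77, 6.81 and 6.97 on MOTS-c arrays and 5.86, 5.91 and 6.07 on control arrays, with a log2 fold change of 0.89 (SE 0.059, limma adjusted p = 5.23e-12). HOXD4 rose by 0.74 (SE 0.11) and HOXC6 by 0.50 (SE 0.072), while HOXC9 fell by 0.44 (SE 0.10). Of 13 SOX genes 5 fell and 2 rose, with a median of -0.051, but under median scaling 3 fell and 2 rose and the median was 0.054. SOX3, a factor of early neural cells, had 8.43, 8.59 and 8.61 on MOTS-c arrays and 10.68, 11.11 and 11.25 on control arrays. SOX8 was at -0.78 (SE 0.086), and SOX2, the pluripotency factor most like SOX3, rose by 0.73 (SE 0.13), with arrays that overlapped. Of 15 KLF and SP genes 4 fell and 2 rose (4 and 1 without control replicate 5, 3 and 3 under median scaling). KLF10 was at -0.90 (SE 0.097), KLF6 at -0.50 (SE 0.065) and KLF12 at 0.86 (SE 0.12).

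Notch signalling, through which touching cells set each other's fate, held many decreases. Of 29 measured members 13 fell (44.8%, against 22.9% of all genes), 4 rose (13.8%, against 22.1%) and 12 were not called. The median was -0.18. Under median scaling 10 fell and 4 rose, with a median of -0.078. Among ligands and receptors, NOTCH1 was at -0.59 (SE 0.11), DLL3 at -0.41 (SE 0.066) and DLL1 at -0.23 (SE 0.063, not called under median scaling), whereas NOTCH3 was at 0.30 (SE 0.083). MFNG, a glycosyltransferase that tunes the receptors, had 5.22, 5.33 and 5.56 on MOTS-c arrays, where it was detected on 3 of 6, and 6.27, 6.63 and 6.90 on control arrays. ADAM10, the protease that cuts the receptors, rose by 0.54 (SE 0.14), with overlap, and RBPJ, the DNA-binding partner, was at 0.44 (SE 0.11) with -0.14 at its other probe. The target genes were lower: HES7, detected on 1 of 6 MOTS-c arrays, had 5.09, 5.28 and 5.33 on MOTS-c arrays and 6.20, 6.46 and 6.51 on control arrays, HEYL was at -0.59 (SE 0.060), HEY2 at -0.55 (SE 0.063), NRARP at -0.37 (SE 0.095) and HEY1 at -0.34 (SE 0.058, not called under median scaling). HES1 was not called at -0.031 (SE 0.067).

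In Wnt signalling 13 of 35 rose (37.1%, against 22.1% of all genes) and 6 fell, or 9 and 3 under median scaling. NKD2, an inhibitor of the pathway, had 11.02, 11.22 and 11.29 on MOTS-c arrays and 11.73, 11.85 and 11.99 on control arrays, with a log2 fold change of -0.66 (SE 0.061, limma adjusted p = 1.94e-09). The receptors FZD4 at -0.54 (SE 0.064) and FZD5 at 0.64 (SE 0.088) moved apart. Of 30 BMP and TGF-beta genes 6 rose and 7 fell, shares near those of all genes. ID3, a BMP target that blocks differentiation factors, had 10.40, 10.76 and 10.92 on MOTS-c arrays and 11.34, 11.68 and 11.84 on control arrays, with a log2 fold change of -0.92 (SE 0.099, limma adjusted p = 2.81e-08). ID2 was at -0.58 (SE 0.083) and the ligand BMP2 at -0.62 (SE 0.072). Of 22 YAP and Hippo genes 6 rose and 5 fell (6 and 3 under median scaling). The target CCN2 was at -0.69 (SE 0.071), the DNA-binding partner TEAD4 at -0.52 (SE 0.065) and the kinase STK3 at 0.66 (SE 0.12).

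Most proteasome genes rose, while all 3 genes of the inducible catalytic subunits fell. The proteasome degrades ubiquitin-tagged proteins, and cells exposed to interferon or TNF exchange its catalytic subunits for PSMB8, PSMB9 and PSMB10. Of 40 measured subunits and assembly factors 24 rose (60%, against 22.1% of all genes) and 7 fell (17.5%, against 22.9%), with a median of 0.24. PSMD14, which removes the ubiquitin tag, had 11.06, 11.28 and 11.37 on MOTS-c arrays and 10.32, 10.41 and 10.64 on control arrays, with a log2 fold change of 0.79 (SE 0.083, limma adjusted p = 1.86e-08). PSMA2 of the core ring was at 0.73 (SE 0.096), PSMD12 of the lid at 0.72 (SE 0.10), PSMC6 of the ATPase base at 0.51 (SE 0.092) and the assembly factor POMP at 0.45 (SE 0.064). PSMB10 had 8.71, 8.90 and 9.09 on MOTS-c arrays and 10.02, 10.27 and 10.37 on control arrays, with a log2 fold change of -1.33 (SE 0.094, limma adjusted p = 1.53e-11). PSMB9 was at -0.81 (SE 0.082), with -0.22 at its other probe, and PSMB8 at -0.33 (SE 0.11, not called under median scaling). Without these 3 genes, a division made after their values were seen, 24 of 37 rose, 4 fell and 9 were not called. Of 39 genes of cullin ubiquitin ligases 17 rose and 7 fell (17 and 1 under median scaling). CUL7 was at 0.80 (SE 0.11), the signalosome subunit COPS4 at 0.44 (SE 0.073) and the substrate adaptor KEAP1 at -0.58 (SE 0.070).

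Of 25 endoplasmic reticulum chaperones and unfolded protein response genes 8 rose and 6 fell (11 and 3 under median scaling), and HSPA5, the main chaperone of that compartment, was among the lower ones. It had 9.71, 9.85 and 9.90 on MOTS-c arrays and 10.44, 10.52 and 10.58 on control arrays, with a log2 fold change of -0.68 (SE 0.055, limma adjusted p = 1.91e-10). PDIA4, which forms disulphide bonds, was at -0.65 (SE 0.074) and SDF2L1 at -0.55 (SE 0.094). Of 28 cytosolic heat shock proteins 12 rose and 2 fell (13 and 1 without control replicate 5), with HSPB8 at 0.43 (SE 0.092), HSPH1 at 0.37 (SE 0.074), HSPA4 at 0.34 (SE 0.067) and the co-chaperone BAG1, detected on 5 of 6 MOTS-c arrays, at -0.34 (SE 0.095). Of 17 NRF2 antioxidant targets 4 rose and 4 fell (5 and 3 under median scaling). HMOX1, which breaks down heme, had 8.28, 8.34 and 8.40 on MOTS-c arrays and 9.07, 9.21 and 9.41 on control arrays, and GCLM, of glutathione synthesis, was at 0.52 (SE 0.071). Among 5 measured genes of the metallothionein list, metal-binding proteins and their regulator, 3 fell and 0 rose: MT1X was at -0.65 (SE 0.099), MT1F at -0.58 (SE 0.088) and MT2A at -0.50 (SE 0.10), and these genes are so alike that a probe may read several. Of 23 p53 targets 6 rose and 7 fell (7 and 3 under median scaling), with GADD45B at -0.65 (SE 0.065) and TP53INP1 at 0.60 (SE 0.076). The 2 probes of TP53I3 gave -0.75 and 0.03.

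In lipid metabolism, 10 of 17 fatty acid synthesis and desaturation genes rose and 2 fell, with a median of 0.27. FADS1, a desaturase of polyunsaturated fatty acids, had 10.29, 10.40 and 10.50 on MOTS-c arrays and 9.61, 9.73 and 9.87 on control arrays, with a log2 fold change of 0.67 (SE 0.059, limma adjusted p = 8.42e-10). ACSL1, which activates fatty acids with coenzyme A, was at 0.49 (SE 0.080), and OXSM, of mitochondrial fatty acid synthesis, at -0.34 (SE 0.078). The probes of ACSL4 gave 0.56 and -0.07. Of 23 cholesterol genes 8 rose and 4 fell, with HMGCS1, an early enzyme of the pathway, at 0.52 (SE 0.090) and NSDHL, a late enzyme, at -0.41 (SE 0.060). MSMO1 was called higher at its brightest probe, but its 3 probes ran between -0.35 and 0.71.

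Of 17 enzymes of the methionine cycle and of polyamine synthesis 7 fell and 4 rose, with a median of -0.052 that turned to 0.045 under median scaling. MAT2A, which makes S-adenosylmethionine, had 12.35, 12.41 and 12.45 on MOTS-c arrays and 13.51, 13.73 and 13.88 on control arrays. AMD1, which commits S-adenosylmethionine to polyamines, had 9.54, 9.88 and 10.00 on MOTS-c arrays and 10.36, 10.54 and 10.69 on control arrays, with a log2 fold change of -0.72 (SE 0.10, limma adjusted p = 2.34e-06). PAOX, which breaks polyamines down, was at -0.66 (SE 0.079), and SMS, which makes spermine, rose by 0.35 (SE 0.077) with overlap. Amino acid transporters split, with 8 of 22 higher and 7 lower. The 2 chains of one transporter of large neutral amino acids were both lower, SLC3A2 at -0.76 (SE 0.081) and SLC7A5 at -0.70 (SE 0.088). SLC38A10 was at -0.76 (SE 0.083), with -0.07 at its other probe. Of 18 cytosolic aminoacyl-tRNA synthetases 6 rose and 5 fell (6 and 2 under median scaling). SARS1 was at -0.45 (SE 0.073), AARS1 at -0.34 (SE 0.063, not called under median scaling) and WARS1 at 0.34 (SE 0.071).

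Of 24 genes of pyruvate dehydrogenase and the TCA cycle 11 rose and 3 fell, with a median of 0.13. The 3 that fell were OGDH, a subunit of the oxoglutarate dehydrogenase, at -0.75 (SE 0.10) with -0.15 at its other probe, PDHB, a subunit of pyruvate dehydrogenase, at -0.34 (SE 0.051, not called under median scaling), and PC, which carboxylates pyruvate and was detected on 4 of 6 MOTS-c arrays, at -0.58 (SE 0.098). Of 76 mitochondrial ribosomal proteins 34 fell and 15 rose, with a median of -0.11, but under median scaling 18 fell and 18 rose and the median was 0.025. MRPL41 had 11.30, 11.41 and 11.56 on MOTS-c arrays and 12.10, 12.35 and 12.49 on control arrays, with a log2 fold change of -0.90 (SE 0.081, limma adjusted p = 1.47e-09). MRPS2 was at -0.84 (SE 0.077), MRPL46 at -0.71 (SE 0.066) and MRPL30 at 0.66 (SE 0.093). In mitochondrial import 10 of 36 fell and 5 rose, with a median of -0.10, but under median scaling 4 fell and 6 rose and the median was 0.035. CHCHD4, which folds proteins of the intermembrane space, had 10.97, 11.01 and 11.17 on MOTS-c arrays and 11.56, 11.82 and 11.89 on control arrays, while PMPCB, which cuts off targeting sequences, rose by 0.52 (SE 0.071), and TIMM17A, of the inner membrane channel, was at -0.55 (SE 0.076). Of 20 genes of mitochondrial biogenesis and DNA maintenance 7 fell and 3 rose (7 and 6 without control replicate 5). TWNK, the helicase that unwinds mitochondrial DNA, had 8.83, 9.04 and 9.09 on MOTS-c arrays and 9.87, 9.99 and 10.15 on control arrays, with a log2 fold change of -0.98 (SE 0.075, limma adjusted p = 6.5e-11). PPRC1, a coactivator, was at -0.50 (SE 0.060), and SSBP1, which coats single strands of mitochondrial DNA, rose by 0.49 (SE 0.089).

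Few cytosolic ribosomal proteins were called. Of 68 measured members 3 rose and 2 fell (7.35% called, against 45.1% of all genes), with a median of -0.012. RPL29 was at -0.54 (SE 0.064) and RPL36A at -0.37 (SE 0.10, not called under median scaling), and RPL14 was at 0.36 (SE 0.10) with 0.00 at its other probe, in a family whose pseudogenes leave the source of a signal uncertain. Of 43 translation factors 10 rose and 8 fell (12 and 3 under median scaling). The initiation factor subunit EIF2S2 was at -0.54 (SE 0.060), EIF3C at -0.59 (SE 0.078) and EIF2B3 at 0.31 (SE 0.053).

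Of 35 SR proteins and hnRNPs, which bind pre-mRNA and steer splicing, 13 rose and 4 fell, and under median scaling 14 rose and 0 fell. HNRNPU had 9.58, 9.64 and 9.90 on MOTS-c arrays and 8.81, 8.85 and 8.99 on control arrays, with a log2 fold change of 0.80 (SE 0.064, limma adjusted p = 1.83e-10) and 0.11 at its other probe. SRSF11 was at 0.62 (SE 0.085), HNRNPH2 at 0.59 (SE 0.073) and CLK1, a kinase of SR proteins, at -0.38 (SE 0.099, not called under median scaling). Of 42 spliceosomal proteins 9 rose (21.4%, against 22.1% of all genes) and 5 fell, or 16 and 0 under median scaling, with the helicase DDX46 at 0.73 (SE 0.074), PRPF38A at 0.45 (SE 0.072), SNRPD1 at 0.41 (SE 0.066) and PRPF4 at -0.28 (SE 0.055, not called under median scaling). Of 40 nuclear pore and export genes 12 rose and 5 fell (15 and 1 under median scaling). The pore proteins NUP107 and NUP155 were at 0.55 (SE 0.063) and 0.55 (SE 0.078) and the export factor NXT1 at -0.59 (SE 0.060). Subunits of the RNA exosome, which degrades RNA from its 3′ end, went opposite ways. EXOSC6 had 10.31, 10.40 and 10.50 on MOTS-c arrays and 9.24, 9.39 and 9.47 on control arrays, with a log2 fold change of 1.04 (SE 0.061, limma adjusted p = 6.2e-13), whereas EXOSC4 had 8.30, 8.40 and 8.57 on MOTS-c arrays and 8.85, 9.22 and 9.44 on control arrays, with a log2 fold change of -0.79 (SE 0.088, limma adjusted p = 5e-08). EXOSC5 was at -0.50 (SE 0.082) and the deadenylase subunit PAN2 at -0.48 (SE 0.073). In the list of 36 exosome and decay genes, which does not hold EXOSC6, 8 rose (22.2%, against 22.1% of all genes) and 5 fell.

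Of 15 host genes of small nucleolar RNAs 9 fell and 0 rose, with a median of -0.35. SNHG15 had 11.72, 11.88 and 11.93 on MOTS-c arrays and 12.44, 12.64 and 12.77 on control arrays, with a log2 fold change of -0.75 (SE 0.058, limma adjusted p = 8.72e-11). SNHG17 was at -0.57 (SE 0.079) and EPB41L4A-AS1 at -0.52 (SE 0.074). Among 96 genes annotated as small nucleolar RNAs, which guide chemical changes of ribosomal RNA, 25 rose (26.0%) and 5 fell (5.21%). SNORD17 had 7.27, 7.52 and 7.79 on MOTS-c arrays and 6.01, 6.19 and 6.32 on control arrays, with a log2 fold change of 1.36 (SE 0.086, limma adjusted p = 2.28e-12). SNORD96A was at 1.18 (SE 0.069), SNORD16 at 1.08 (SE 0.10) and SNORA12 at 1.35 (SE 0.26), with 5 of 6 control arrays above detection. SNORD95, named after its value was seen, was at -0.85 (SE 0.085). Labelling started from an oligo-dT primer and these RNAs lie within longer transcripts, so which RNA such a probe read is uncertain.

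Genes of mitosis rose more often than they fell. Of 47 genes of mitosis and G2/M 23 rose (48.9%, against 22.1% of all genes) and 4 fell, with a median of 0.14. Under median scaling 27 rose and 0 fell. SPC25, of the outer kinetochore, had 9.37, 9.5 and 9.72 on MOTS-c arrays and 8.49, 8.72 and 8.85 on control arrays, with a log2 fold change of 0.80 (SE 0.081, limma adjusted p = 9.09e-09). ANLN, of the contractile ring, had 9.43, 9.64 and 9.82 on MOTS-c arrays and 8.66, 8.98 and 9.34 on control arrays, CCNB2, a mitotic cyclin, was at 0.55 (SE 0.058), and NEK2, a centrosome kinase, at -0.27 (SE 0.061, not called under median scaling). Of 49 genes of DNA replication and G1/S 10 rose and 8 fell (10 and 0 under median scaling), and their changes were small. PCNA, the sliding clamp, was at 0.36 (SE 0.062), POLA1, of the priming polymerase, at 0.33 (SE 0.051), RFC4, of the clamp loader, at 0.37 (SE 0.062) and RPA2, which coats single strands, at -0.33 (SE 0.064, not called under median scaling). Of 28 DNA repair genes 10 rose and 4 fell. FANCL, a ubiquitin ligase of crosslink repair, had 10.30, 10.31 and 10.40 on MOTS-c arrays and 9.12, 9.66 and 9.91 on control arrays, and RAD51D, of homologous recombination, was at -0.43 (SE 0.087). The probes of WRN gave 0.54 and -0.10. These are totals over a culture, in which fewer cells of a type and less RNA per cell cannot be told apart.

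Of 54 Polycomb, Trithorax and histone-modifying genes, which set the state of chromatin, 11 rose and 6 fell (12 and 1 under median scaling). In the main fit 31.5% were called, against 45.1% of all genes. RING1, a ubiquitin ligase of Polycomb, had 11.77, 11.81 and 11.87 on MOTS-c arrays and 12.33, 12.40 and 12.45 on control arrays, with a log2 fold change of -0.58 (SE 0.047, limma adjusted p = 2.27e-10). HDAC4 was at 0.51 (SE 0.087) and SETD2 at -0.31 (SE 0.066, not called under median scaling). Of 31 remodelling genes 8 rose and 4 fell (7 and 1 under median scaling). The ATPases SMARCA5 at 0.71 (SE 0.12) and SMARCA1 at 0.57 (SE 0.076) were higher and the bromodomain protein BRD9 at -0.49 (SE 0.059) lower.

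Many genes of the coats of transport vesicles rose. COPII coats carry cargo out of the endoplasmic reticulum and COPI coats bring it back, and of 43 coat and tether genes 26 rose (60.5%) and 5 fell, with a median of 0.28. SEC24D, a cargo receptor of COPII, had 7.63, 7.78 and 7.98 on MOTS-c arrays and 6.72, 6.93 and 7.37 on control arrays, with a log2 fold change of 0.81 (SE 0.087, limma adjusted p = 2.37e-08). Its relatives SEC24A and SEC24B were at 0.87 (SE 0.12) and 0.55 (SE 0.12), and SEC23A, the partner of SEC24 proteins in the coat, at 0.69 (SE 0.094). COPB2 and COPB1 of COPI were at 0.68 (SE 0.065) and 0.55 (SE 0.075), whereas TMED9, a cargo receptor, fell by 0.46 (SE 0.080). Of 52 genes of endosomal sorting 27 rose and 5 fell. SNX14 had 10.00, 10.29 and 10.44 on MOTS-c arrays and 9.11, 9.37 and 9.76 on control arrays, VPS13A, a lipid transfer protein, was at 1.11 (SE 0.12) with its 4 probes between 0.19 and 1.11, and VPS28, an ESCRT subunit, fell by 0.46 (SE 0.085). VPS53 was called at 0.89 but its other probe gave -0.07.

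Of 40 genes of the vacuolar proton pump and the lysosome 14 rose and 8 fell (16 and 4 under median scaling). Parts of the machinery that reports amino acids to the kinase mTOR from the lysosome surface moved apart. RRAGB, one of its GTPases, had 8.20, 8.36 and 8.55 on MOTS-c arrays and 7.13, 7.32 and 7.44 on control arrays, with a log2 fold change of 1.06 (SE 0.071, limma adjusted p = 5.23e-12), and LAMTOR2, of the scaffold that anchors it, had 11.96, 12.05 and 12.18 on MOTS-c arrays and 12.62, 12.82 and 12.88 on control arrays, with a log2 fold change of -0.72 (SE 0.072, limma adjusted p = 7.87e-09). The pump subunits ATP6V1H at 1.0 (SE 0.081) and ATP6V1C1 at 1.54 (SE 0.15), were higher, with 0.49 and 0.35 at their other probes. ATP6V1C1 was detected on 3 of 6 control arrays, with levels of 6.76, 6.96 and 7.29 on MOTS-c arrays and 5.14, 5.37 and 5.89 on control arrays, so its larger value is a fitted one and no exact change. Of 24 peroxisome genes 12 rose and 4 fell, with the enzymes HACL1 at 0.42 (SE 0.059) and GNPAT at 0.39 (SE 0.054) and the assembly factor PEX16 at -0.53 (SE 0.074).

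Of the genes of cell structure, 17 of 43 tubulins, kinesins and dynein subunits rose and 6 fell. TUBA4A, an alpha-tubulin, had 6.49, 6.69 and 6.84 on MOTS-c arrays and 7.63, 7.77 and 8.08 on control arrays, with a log2 fold change of -1.11 (SE 0.085, limma adjusted p = 8.4e-11), while TUBB, the main beta-tubulin, had 13.29, 13.40 and 13.45 on MOTS-c arrays and 12.83, 12.92 and 12.98 on control arrays, with a log2 fold change of 0.46 (SE 0.052, limma adjusted p = 5.58e-08). DYNC1I2, of the motor dynein, was at 0.54 (SE 0.070). Of 38 actin and adhesion genes 11 rose and 4 fell (13 and 1 under median scaling). The tropomyosins went apart, TPM1 at 0.56 (SE 0.060) and TPM2 at -0.47 (SE 0.12), and the laminin receptor subunit ITGA6 was at 0.46 (SE 0.071) and E-cadherin, CDH1, at -0.42 (SE 0.065, not called under median scaling). Of 41 collagens and matrix genes 14 rose and 4 fell. COL18A1 had 8.04, 8.13 and 8.22 on MOTS-c arrays and 7.03, 7.22 and 7.36 on control arrays, with a log2 fold change of 0.91 (SE 0.063, limma adjusted p = 9.22e-12). COL4A5, of basement membranes, was at 0.71 (SE 0.065) and COL6A2 at 0.68 (SE 0.10), whereas COL5A2 was at -0.65 (SE 0.12). Of 19 circadian clock genes 7 fell and 5 rose (4 and 4 under median scaling). The kinase CSNK1D was at -0.66 (SE 0.061) and the repressor PER2 at -0.60 (SE 0.10). RORA had 4 probes between -0.46 and 0.70, and the mean of its probes gave 0.00.

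**Figure D3:**
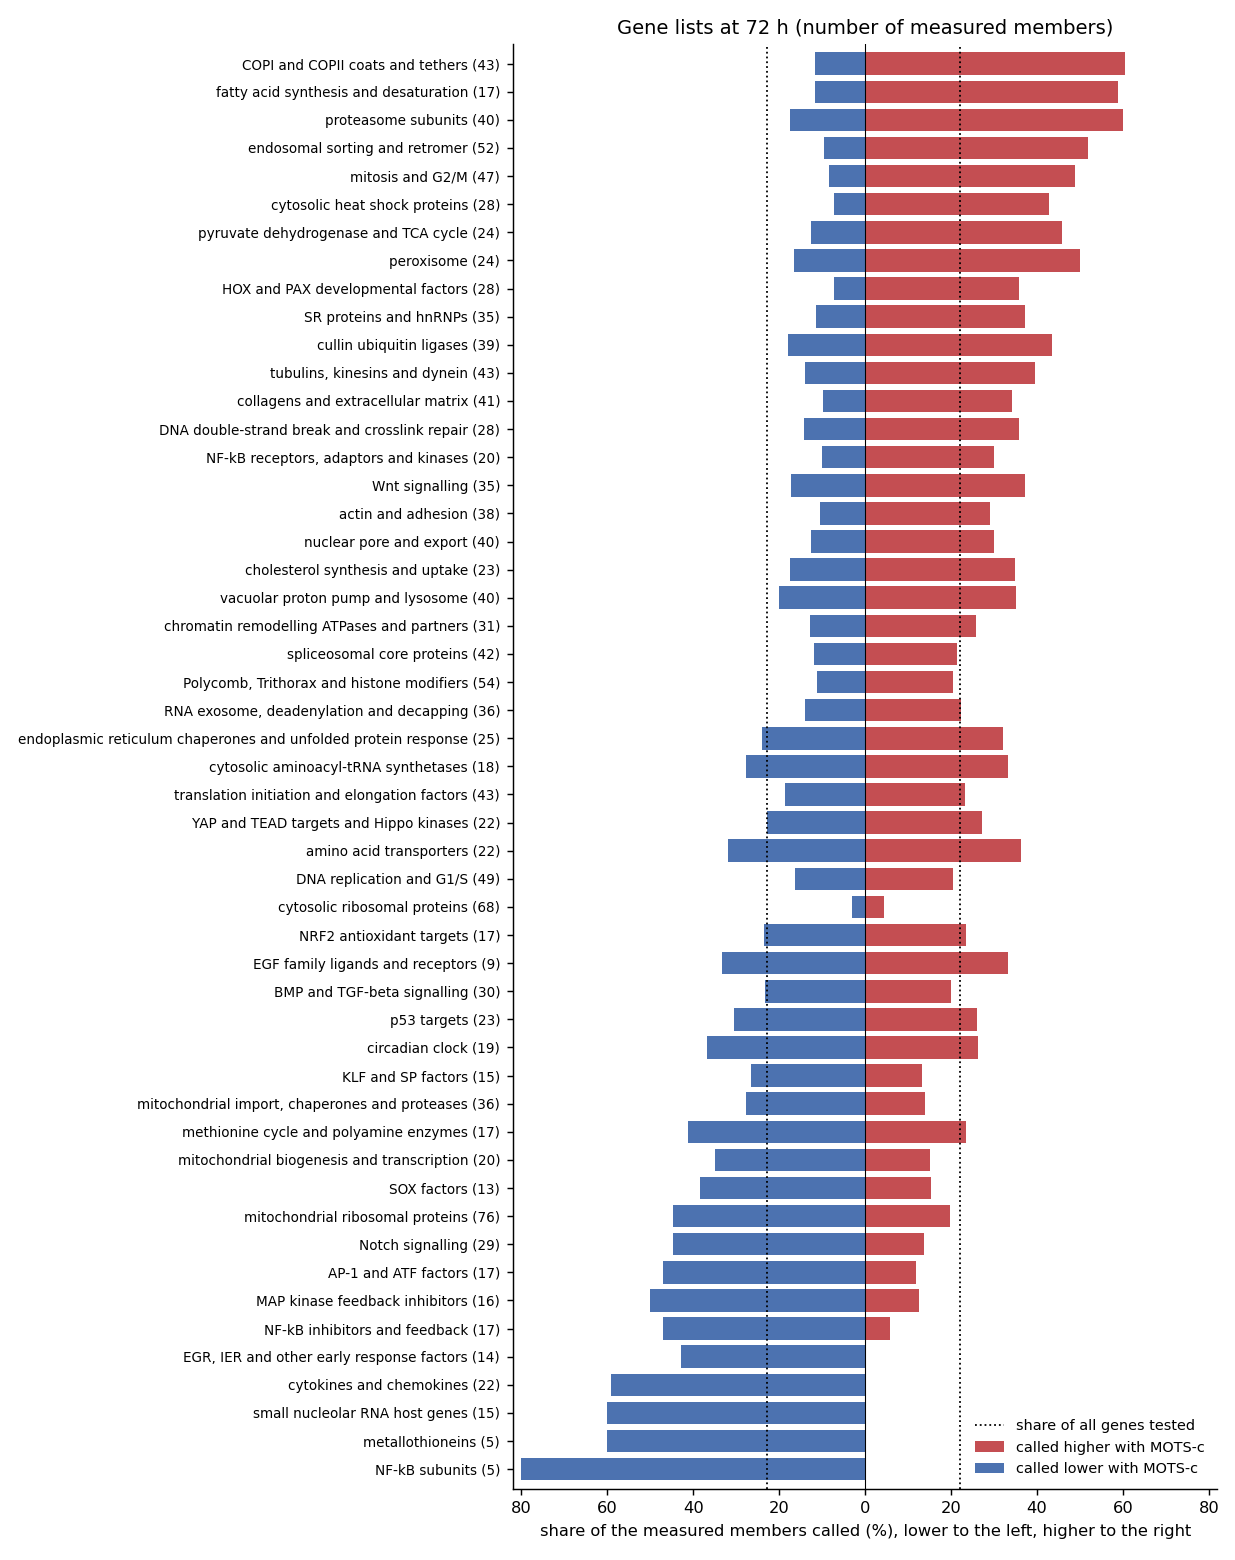
Share of measured members called higher (red, to the right) and lower (blue, to the left) with MOTS-c in 51 gene lists, ordered by the difference of these shares, with the shares of all genes tested as dotted lines (22.1% and 22.9%). Coat and tether genes lie at the top, with 60.5% higher, and NF-kB subunits at the bottom, where 4 of 5 fell.

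Outside these lists, the largest decreases included those of the keratin-associated proteins KRTAP19-1, with 6.49, 6.72 and 7.09 on MOTS-c arrays and 9.5, 9.93 and 10.10 on control arrays, and KRTAP19-6, with 6.16, 6.44 and 6.68 on MOTS-c arrays and 8.58, 9.29 and 9.61 on control arrays. Both belong to a cluster of near-identical hair protein genes on chromosome 21, so the transcript that each probe read is uncertain. LAD1, of basement membrane anchors, was at -1.70 (SE 0.080), the tyrosine kinase FES at -1.57 (SE 0.11) and TXNIP, an inhibitor of thioredoxin and glucose uptake, at -1.48 (SE 0.089). Enzymes among them included the phosphatases DUSP23 at -1.46 (SE 0.093) and ALPL at -1.37 (SE 0.091), the carbonic anhydrase CA4 at -1.35 (SE 0.10), the matrix protease MMP9 at -1.30 (SE 0.097) and GGACT at -1.44 (SE 0.074). The ubiquitin ligase WWP2 was at -1.29 (SE 0.082), the kinase inhibitor INKA1 at -1.31 (SE 0.092), the mucin-like FCGBP at -1.39 (SE 0.090), the serotonin receptor subunit HTR3A at -1.30 (SE 0.072) (-0.55 at its other probe) and the noncoding RNA HULC at -1.43 (SE 0.11). Others were TAFA3 at -1.32 (SE 0.098), C6orf52 at -1.37 (SE 0.082), the pseudogene NAPSB at -1.43 (SE 0.11) and ACTBL2, a near copy of actin, at -1.32 (SE 0.14). DENND1A was at -2.50 at its brightest probe, but its 3 probes ran between -2.50 and 0.20.

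The largest increases were smaller and of varied function. ZFC3H1, which hands nuclear RNA to the exosome, had 7.78, 7.95 and 8.09 on MOTS-c arrays and 6.43, 6.75 and 7.00 on control arrays. TMEM70, an assembly factor of ATP synthase, was at 1.02 (SE 0.070), the lysosomal transporter SLC46A3 at 1.14 (SE 0.068), B4GALT6, which makes lactosylceramide, at 1.06 (SE 0.14) and MITD1, of the last step of cell division, at 0.99 (SE 0.097). The neuronal sodium channel SCN9A was at 1.05 (SE 0.076), FGF12 (4 of 6 control arrays above detection) at 1.03 (SE 0.11), and the Wnt regulator AMER2, also detected on 4 of 6, at 1.0 (SE 0.088). Others were the histone gene H2BC21 at 1.03 (SE 0.066), the actin-binding TMSB15A at 1.0 (SE 0.065), the ubiquitin ligase adaptor DCAF16 at 1.03 (SE 0.10), LGALSL at 1.17 (SE 0.095), TYMSOS at 1.11 (SE 0.073), C12orf76 at 1.08 (SE 0.073), ZNF280D at 1.07 (SE 0.13), FAM221A at 1.0 (SE 0.088), OGFRL1 at 0.99 (SE 0.10) and CABLES2 at 0.98 (SE 0.072). BICD1, an adaptor of dynein detected on 3 of 6 control arrays, was at 1.03 (SE 0.15), with its 3 probes between 0.13 and 1.03. UAP1L1 and DNAH14 were called higher at their brightest probe, but other probes gave -0.65 and -0.32.

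Some genes crossed the detection limit. Of 13283 genes tested, 48 were detected on all 6 arrays of one 72 h group and none of the other, 7 with MOTS-c and 41 in control cells. The filter asked for detection on 6 of the 24 arrays, so such a gene could pass it through 1 group alone. Among those lost with MOTS-c, CYP2F1, a cytochrome P450, was at least 3.76-fold lower, with 5.07, 5.16 and 5.41 on MOTS-c arrays and 6.98, 7.34 and 7.39 on control arrays. KRTAP21-2 was at least 2.03-fold lower, the adhesion molecule ICAM2 at least 2.02-fold, GTSF1, of transposon silencing in germ cells, at least 1.75-fold, the defensin DEFB126 at least 1.66-fold and KRTAP20-2 at least 1.54-fold. Among those gained, the volume-regulated channel subunit LRRC8C was at least 1.47-fold higher, with 5.67, 5.93 and 5.99 on MOTS-c arrays and 4.84, 5.01 and 5.16 on control arrays. The formin FMNL3 was at least 1.38-fold higher, GLIDR at least 1.21-fold, the histone gene H2AC4 at least 1.2-fold and the amino acid transporter SLC38A7 at least 1.16-fold. UACA was also gained, but its other probe gave a log2 fold change of -0.22. Each bound sets the mean of the group with signal against the lowest detected signal of the other group's arrays, or the gene's own value where that is higher.

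Marker genes of HEK293 were measured in full. All 11 listed neuronal and epithelial genes that the line is known to express were detected on all 12 arrays, with a summed linear intensity of 25979 to 27543 on MOTS-c arrays and 23370 to 25430 on control arrays. Of these 4 rose and 4 fell (6 and 2 under median scaling), with NEFM at -1.01 (SE 0.060), NEFH at -0.74 (SE 0.068) and STMN1 at 0.31 (SE 0.073). Of 11 embryonic kidney genes 8 were measured, 3 higher and 2 lower, with GATA3 at -0.66 (SE 0.097), EYA1 at 0.52 (SE 0.084) and OSR1 at -0.32 (SE 0.071, not called under median scaling). None of 8 kidney tubule genes passed the detection filter. Of 12 leukocyte genes 6 were measured, 0 higher and 3 lower, with sums of 709.5 to 790.3 on MOTS-c arrays and 822.3 to 1188 on control arrays. CD14 was at -0.76 (SE 0.083) and CD74 at -0.53 (SE 0.13), CSF1R was undetected on all 6 MOTS-c arrays and at least 1.37-fold lower, and the pan-leukocyte gene PTPRC and the lymphocyte genes CD3D and CD3E did not pass the filter. Of 7 endothelial genes 2 were measured and both fell, ESAM at -0.60 (SE 0.10) and VWF, undetected on all MOTS-c arrays, at least 1.26-fold, with sums of 78.1 to 90.8 on MOTS-c arrays and 114.8 to 159.2 on control arrays. PECAM1, CDH5 and KDR did not pass the filter. These sums were higher on control arrays, as were the chemokines, and their part in the results was not tested. Of 9 fibroblast genes 5 were measured, with COL3A1, detected on 3 of 6 MOTS-c and 5 of 6 control arrays, the 1 called at -0.30 (SE 0.082) (2 called without control replicate 5). Of 10 keratinocyte and carcinoma genes 3 were measured, with CDH1 the 1 called, and of 6 hepatocyte genes 2 were, with 0 called (limma, 0 at an unadjusted p under 0.05).

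The calls were not spread evenly over the genome. Of 4 equal classes of genes by their span in the RefSeq annotation, the shortest had 13.0% called higher and 32.2% lower and the longest 33.0% and 12.7%, against 22.1% and 22.9% of all genes. By chromosome the share of genes called lower was highest on chromosomes 19 (34.3% of 936), 22 (33.8% of 325) and 16 (30.8% of 590), where 10.5%, 12.6% and 14.4% were called higher. Among autosomes it was lowest on chromosome 13, with 27 of 245 lower and 76 higher, and chromosome 4, where 14.4% of 478 were lower and 31.6% higher. Chromosome 4 thus had few decreases although it holds the CXC chemokine cluster with the large decreases of CXCL1, CXCL2 and CXCL8. The GC content of the 250-base promoter showed no such gradient, with 22.3% to 25.4% higher and 20.7% to 23.9% lower in its 4 classes. Gene length and chromosome are properties of the same genes and are not independent.

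**Figure D4:**
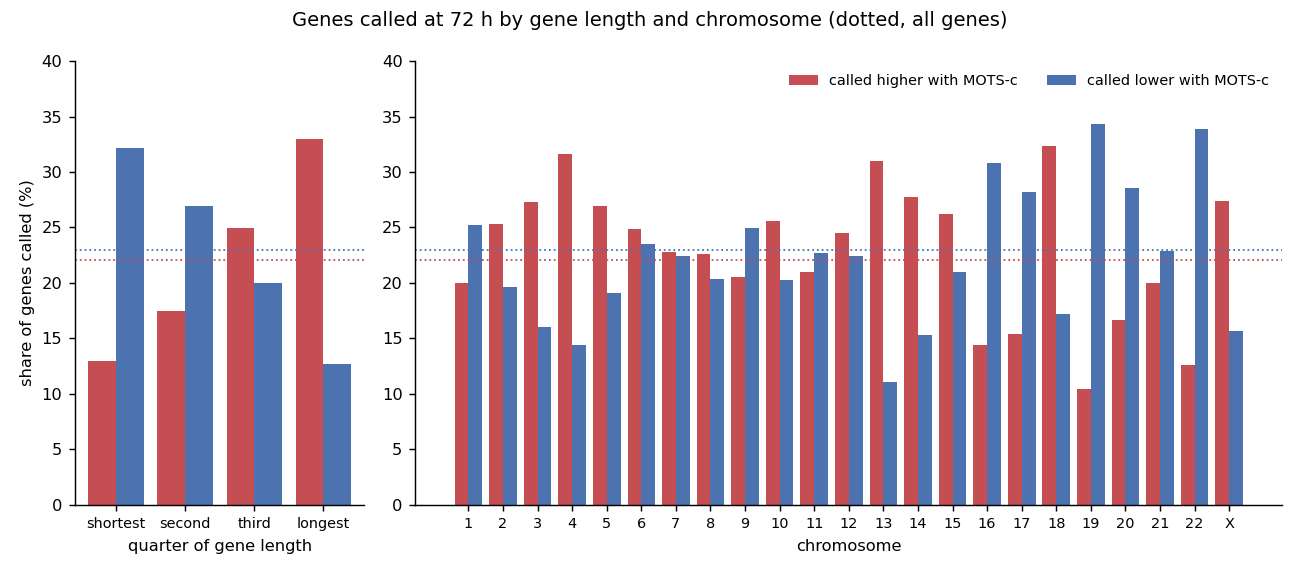
Share of tested genes called higher (red) and lower (blue) with MOTS-c by class of gene length (left panel) and by chromosome (right panel), with the shares of all genes as dotted lines. The share called higher goes from 13.0% in the shortest class to 33.0% in the longest, and chromosomes 16, 19 and 22 have the most calls lower.

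The effects at 72 h were set beside those at 4 h for 12 genes, chosen after their values were seen, by the limma contrast of the 2 effects, which called 4522 genes (34%). None of the 12 was called at 4 h. The share of all genes called at 4 h is not given here, so this need not be particular to the 12. NFKBIA was at 0.038 (SE 0.084) at 4 h and -1.05 (SE 0.084) at 72 h, and its median levels at 4 h were 10.56 with MOTS-c and 10.50 in control cells. TNFAIP3 was at 0.12 (SE 0.10) and -1.03 (SE 0.10), with 4 h medians of 6.33 with MOTS-c and 6.19 in control cells. For both genes the 72 h controls were the group with the highest levels. PSMB10 was at 0.12 (SE 0.094) at 4 h and -1.33 (SE 0.094) at 72 h, TUBA4A at -0.16 (SE 0.085) and -1.11 (SE 0.085), TWNK at 0.036 (SE 0.075) and -0.98 (SE 0.075), and ID3 at 0.13 (SE 0.099) and -0.92 (SE 0.099). The other genes were higher with MOTS-c than in control cells at 72 h. PSMD14 was at -0.22 (SE 0.083) at 4 h and 0.79 (SE 0.083) at 72 h, SEC24A at -0.17 (SE 0.12) and 0.87 (SE 0.12), and RRAGB at -0.061 (SE 0.071) and 1.06 (SE 0.071). COL18A1 was at -0.16 (SE 0.063) and 0.91 (SE 0.063), HOXA2 at -0.033 (SE 0.059) and 0.89 (SE 0.059), and SPC25 at -0.00064 (SE 0.081) and 0.80 (SE 0.081). The levels of PSMD14 had medians of 11.09 with MOTS-c and 11.30 in control cells at 4 h, and 11.28 with MOTS-c and 10.41 in control cells at 72 h, so the 72 h controls had the lowest levels of the 4 groups. HOXA2 was lower at 72 h than at 4 h in both groups. Its MOTS-c arrays held 7.34 to 7.57 at 4 h and 6.77 to 6.97 at 72 h, and its control arrays 7.35 to 7.58 and 5.86 to 6.07. COL18A1 on MOTS-c arrays held 7.67 to 7.96 at 4 h and 8.04 to 8.22 at 72 h. PSMB10 held 8.89 to 9.48 and 8.71 to 9.09 on MOTS-c arrays, and 10.02 to 10.37 on 72 h controls. The difference of the effects passed the test for all 12, with the largest limma adjusted p at 2.99e-05 for SEC24A. The 12 had been chosen with their changes at 72 h known, so this outcome was favoured by the choice.

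**Figure D5:**
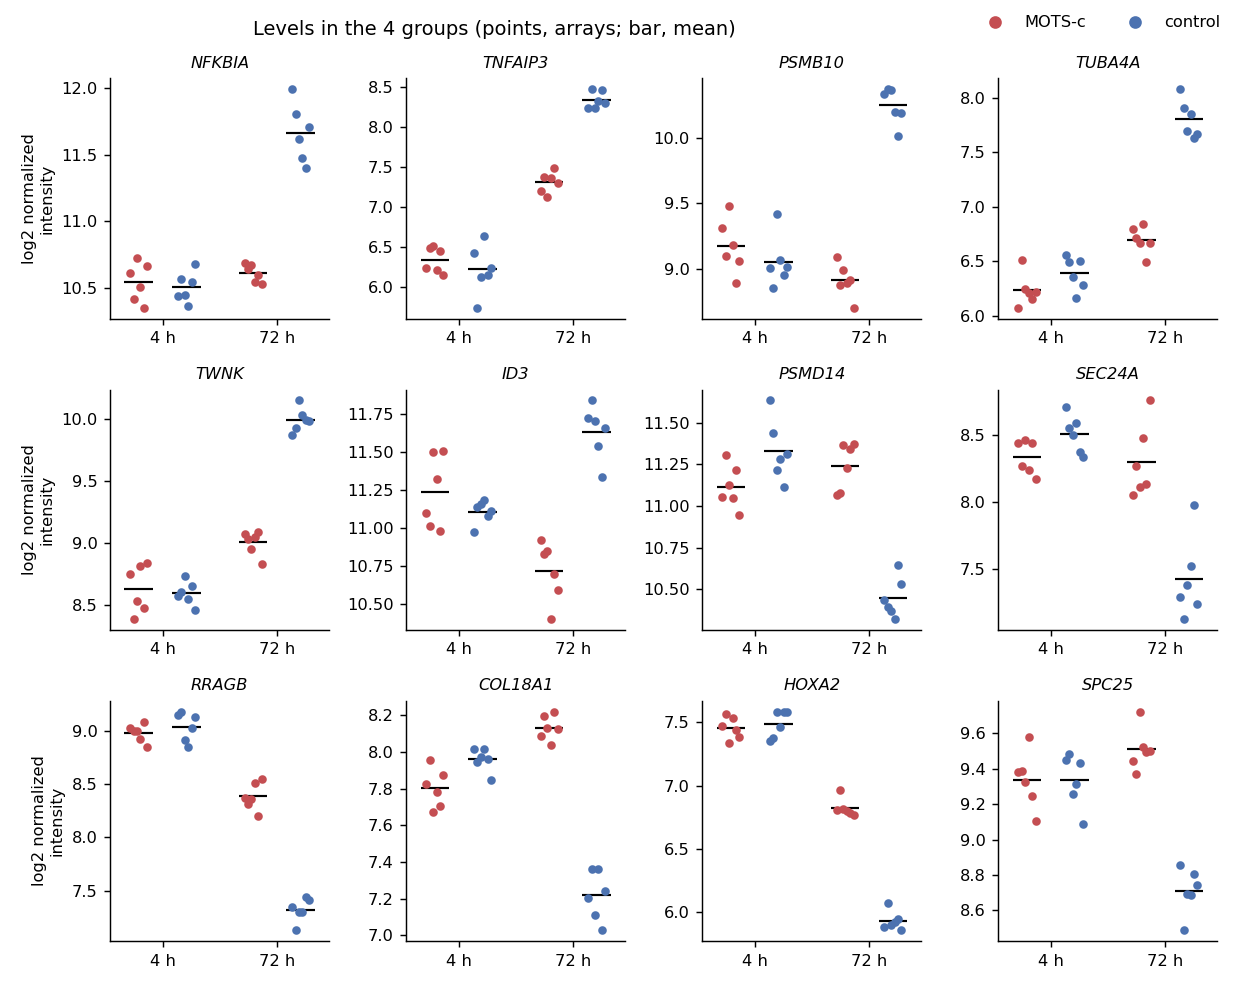
Log2 normalized intensity of 12 genes at 4 h and 72 h, with MOTS-c arrays in red left of control arrays in blue at each time, points for arrays and bars for means of 6 arrays. At 4 h the means of MOTS-c and control arrays differ by at most 0.22, and at 72 h by 0.79 to 1.33.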

How the data were processed

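Illumina bead arrays of total RNA had been read with GenomeStudio 2011.1, per the submitters' processing notes. The deposited table holds, for 47323 probes and each of 24 arrays, the mean bead intensity, neither scaled nor log-transformed by the authors, and the detection p-value that the authors' software gave. A second deposited table holds a score, which equals the Z score of log10 intensities to within 5e-10. What it was made for is not given in the sources used here.

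Intensities were background-corrected from the detection p-values, given an offset of 16, quantile-normalized and log2-transformed (limma 3.58.1, neqc, R 4.3.3). Probes were kept where 6 or more arrays had a detection p under 0.05. Of the 23931 kept, 17873 had 1 gene in GEO's platform annotation. The brightest probe stood for each of 13283 genes. A model of the 4 group means was fitted to all 24 arrays with limma (20 residual degrees of freedom), and p-values were two-sided and Benjamini-Hochberg adjusted over all genes. Called means an adjusted p under 0.05. Where a gene had several kept probes, the signs of all its probes were the same for 82.2% of 1821 called genes. The share was 71.6% of all 3619 such genes, called or not. The scripts were tested on simulated data. Each array is 1 sample, and each SE covers only the spread between arrays.

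No label says that replicates were separate cultures, so p-values cover only the spread among these arrays, perhaps a technical one. No scan date or slide was used as a batch. Replicate numbers do not pair the groups: deviations of same-numbered arrays correlated between -0.15 and 0.16.

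The comparison, the gene lists and the markers were chosen with earlier results of these data known. Named genes are the 30 largest changes each way among called genes whose groups do not overlap, in each list the 3 called members with the smallest p and the called member with the largest change against the list's median, and the 6 genes with the largest change each way among those detected in 1 group only. Other members of the cytokine, NF-kB, Notch, proteasome and coat lists, SNORD95 and the genes of antigen presentation were named after their values were seen. Alternatives changed the background, normalization, filter, probe rule, arrays, weights, variance prior, block and threshold. Promoter sequences came from RefSeq (GRCh38.p14), and figures were drawn with matplotlib 3.10.9.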

Additional observations from a re-analysis of the deposited data

Results flagged for a closer look

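Single arrays stood far from the other 5 of their group for some of the named genes. For each gene and group the gap between the highest or lowest array and its nearest neighbour was divided by the range of the group, and ratios above Dixon's critical value are listed. Of 572 groups of 6 arrays, over 286 named genes, 35 passed, where chance flags about 1 in 20 groups. Among MOTS-c arrays an array was the highest and far from the rest, with the ratio in parentheses, for DEFB126 (0.705), DENND1A (0.654), FANCL (0.641), HOXA2 (0.735), NFKBIB (0.748), PDHB (0.637), PPRC1 (0.691) and ZC3H12A (0.647). A MOTS-c array was the lowest and far from the rest for COL6A2 (0.81), HSPA5 (0.694), MAP3K7 (0.632), SLC38A7 (0.709), SNORD96A (0.748), SOX8 (0.655) and TRAF6 (0.685). Control replicate 5 was the distant array in 15 control groups. It was the highest for ADAM10 (0.672), B2M (0.756), CLK1 (0.65), COPB1 (0.683), COPS4 (0.639), FGF12 (0.678), GNPAT (0.646) and SOX2 (0.671), and the lowest for CA4 (0.664), CHCHD4 (0.67), HLA-DMA (0.632), IER3 (0.63), NSDHL (0.658), PEX16 (0.648) and RPL14 (0.64). Another control array was distant for EIF2S2 (0.703), HEYL (0.7), LAD1 (0.638), MAF (0.662) and SLC46A3 (0.805). For ADAM10 its level of 8.32 lay above the highest MOTS-c array at 8.24, with the other control arrays at 7.55 or below, and for SOX2 its level of 7.88 lay within the MOTS-c range, with the other control arrays at 7.42 or below.

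The response to MOTS-c was unequal at the 2 times for the 12 genes shown at 4 h and 72 h, by the limma contrast of the effects. These genes were chosen with their changes at 72 h known, which favours this outcome. The effect at 72 h minus the effect at 4 h, on the log2 scale, was -1.09 for NFKBIA, -1.15 for TNFAIP3, -1.45 for PSMB10, -0.95 for TUBA4A, -1.02 for TWNK and -1.05 for ID3. It was 1.01 for PSMD14, 1.04 for SEC24A, 1.12 for RRAGB, 1.07 for COL18A1, 0.93 for HOXA2 and 0.80 for SPC25.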

How the results depend on the processing

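The number of genes called lay between 4488 (adjusted p under 0.01) and 6844 (array weights), and leaving out 1 array at a time gave 5477 to 6382 called genes, 2636 to 3195 higher, 2835 to 3187 lower and 115 to 145 at least 2-fold, with control replicate 5 out at the upper end of each. Moves beyond 1.5 times were few. Median scaling called 1737 genes lower, with 63.0% of calls higher against 49.1% with quantile normalization. The number called at least 2-fold was 51 with an offset of 50 and 47 with no background correction, both of which shrink differences by construction, and 83 with a detection p under 0.01 on all 12 arrays of 72 h, which left fewer genes to test. With the replicate number as a replicate block 5799 genes were called, 2834 higher, 2965 lower and 129 at least 2-fold, although 1 of 6 MOTS-c arrays correlated best with the control array of its number. Of 286 named genes, DENND1A turned to 0.20 (not called) under the stricter detection filter and RORA to -0.0019 (not called) with the mean of its probes. Called genes that lost their call numbered 20 under median scaling, all marked above except IL1RAP and TAPBP (DUSP14 at -0.30 and NSDHL at -0.26 kept theirs), and 6 with the mean of the probes (ACSL4, DNAH14, IL1RAP, NFKBIB, RBPJ and TAPBP). At an adjusted p under 0.01 the 4 were CCL5, IL1RAP, PSMB8 and TAPBP, and IL1RAP was lost without control replicate 2. CXCL6 gained a call in 4 of the fits without 1 array and with the mean of its probes, and B2M with the deposited scores. Of 58 list medians, median scaling moved 46, the mean of the probes 6 and the removal of control replicate 5 moved 7 by more than the spread between MOTS-c arrays; the cause was not tested. List counts without control replicate 5 and under median scaling were chosen after the data were seen. Probes below detection in a group give only a bound there.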

Other observations

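Genes of antigen presentation, the display of peptides on the cell surface to T cells, are induced by interferons and NF-kB. They were gathered into a list after their values were seen, so the list supports nothing by itself. Of 27 such genes 21 were measured, and 13 fell, 0 rose and 8 were not called, with a median log2 fold change of -0.44. The decreases were found in both branches of the system. In the class II branch, IFI30, a reductase that opens proteins in the lysosome, had levels of 6.81, 7.01 and 7.11 (lowest, median and highest) on MOTS-c arrays and 7.83, 8.18 and 8.40 on control arrays, with a log2 fold change of -1.13 (SE 0.11, limma adjusted p = 4.73e-09). HLA-DMB, which loads peptides on class II molecules, had 8.73, 8.86 and 9.09 on MOTS-c arrays and 9.83, 9.92 and 10.02 on control arrays. HLA-DOB, its modulator, was detected on 2 of 6 MOTS-c arrays and 6 of 6 control arrays, with levels of 5.25, 5.33 and 5.44 on MOTS-c arrays and 6.20, 6.42 and 6.54 on control arrays, and HLA-DMA was at -0.69 (SE 0.11). In the class I branch, the peptide transporter subunit TAP2 was at -0.58 (SE 0.085), HLA-B at -0.47 (SE 0.080), HLA-E at -0.44 (SE 0.076) and the loading factor TAPBP at -0.28 (SE 0.090, not called under median scaling). The light chain B2M was not called at -0.16 (SE 0.079), nor was TAP1 at -0.025 (SE 0.060). HLA genes are close copies of each other and vary between people, so which of them a probe read is uncertain.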
